A study of Mus musculus with 4 samples.

Results

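ISWI chromatin remodelling genes were followed in Neuro2A cells, a mouse neuroblastoma line, after induction of the homeodomain transcription factor Prox1. The set held 10 genes, taken by symbol from a table of 49548 genes. Smarca1 was chosen by its normalised counts, which were far higher in Prox1 cells, so its values in this contrast are given as a description with no test. The other 9 genes were included as its paralogue Smarca5 and as complex partners. The data were 4 libraries of messenger RNA 3′ ends. The Prox1 group was 2 libraries from a stable Neuro2A line with a Prox1 transgene under a doxycycline-inducible (Tet-On) promoter, and the GFP group was 2 libraries from a stable line with GFP in the same system. Both lines carried a Tet-On transgene, were kept under G418 and hygromycin selection, and received doxycycline at 1 µg/mL. Neither a time of induction nor an uninduced library was part of the material used here. Prox1 and GFP were in separate lines, so transgene and line cannot be told apart, and no label says whether a line was 1 clone or whether the replicates were separate cultures. The p-values therefore speak only of the scatter among the libraries at hand, part or all of which may be technical.

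ISWI enzymes are ATP-driven motors that slide nucleosomes along DNA and space them evenly. Mammals have the paralogous motors Smarca1 (SNF2L) and Smarca5 (SNF2H), and each works with a large partner that reads histones or DNA and decides where the motor acts: Bptf in NURF and Cecr2 in CERF, mainly with Smarca1, and Baz1a, Baz1b, Baz2a and Rsf1 in ACF, WICH, NoRC and RSF, mainly with Smarca5. In the mouse brain Smarca5 is known from dividing progenitors and Smarca1 from differentiating neurons.

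Values are the authors' normalised counts, which summed to between 6798014 and 7683100 per library, with 7301259 and 6798014 in Prox1 cells, against 7123722 and 7683100 in GFP cells. Prox1 itself, the induced gene, was at 1304 and 2505 in Prox1 cells, against 2 and 3 in GFP cells. All 8 sympathetic neuroblastoma markers of a short list were above the minimum level in use, a mean of 10 normalised counts over the 4 libraries. Their summed level was 5471 and 5101 in Prox1 cells, against 11103 and 10684 in GFP cells, and the part of this in the results below was not tested. None of the 5 fibroblast, 5 immune and 5 epithelial markers reached that level, and their sums were 0 to 8 in any library, with Col3a1, Lum, Cd14, Cd3e, Ptprc, Krt5, Krt14 and Krt19 at 0 throughout. limma, fitted to log2(normalised count + 1) of all 13290 genes above the minimum, called 2124 of them (16.0%) at a Benjamini-Hochberg adjusted p under 0.05. That list of calls needed all 4 libraries: with any 1 library left out limma called 0 genes (2461 and 2844 with an unadjusted p under 0.05 when Prox1 replicate 1 or 2 was left out, 2981 and 2365 when GFP replicate 1 or 2 was), and this covers every called gene named below. In bulk RNA, fewer cells that carry a transcript and less of it per cell cannot be told apart.

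The motor Smarca1 (ENSMUSG00000031099, X chromosome 47809368 to 47892974 of mm10, on the minus strand) reached 142 and 88 normalised counts in Prox1 cells, against 5 and 10 in GFP cells. Both Prox1 libraries lay far above both GFP libraries. The means were 115.0 ± 38.2 in Prox1 cells and 7.5 ± 3.5 in GFP cells (SD, n = 2 each), a ratio of 15.3. Its 95% exact counting interval was 9.10 to 27.8. The interval covers counting error only, takes no account of the choice of Smarca1 for its rise, and is not used as a test. The log2 difference was 3.80 ± 0.46 (SE), and it lay between 3.26 and 4.23 over the 14 other settings tried.

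The paralogous motor Smarca5 (ENSMUSG00000031715, mm10 chromosome 8, positions 80698507 to 80739497, minus strand) showed no such gap. It had 482 and 486 normalised counts in Prox1 cells, against 646 and 436 in GFP cells, so the Prox1 libraries lay between the GFP libraries. The log2 difference was -0.13 ± 0.23 (SE; limma adjusted p 0.739), with a 95% interval from -0.64 to 0.38. Without GFP replicate 1 it was 0.15, with an adjusted p of 0.626 in a range of 0.322 to 1 over the 14 other settings. A change of Smarca5 as large as that of Smarca1 lay outside this interval, while one of up to 0.64 down or 0.38 up did not.

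The share of Smarca1 in the pair is given per library as a description, since the choice of Smarca1 for its rise in these counts fixed a larger share in Prox1 cells. Smarca1 gave 22.8% of the summed Smarca1 and Smarca5 counts in Prox1 replicate 1 (95% Wilson interval 19.6% to 26.2%) and 15.3% in Prox1 replicate 2 (12.6% to 18.5%). In the GFP libraries it gave 0.768% in replicate 1 (0.328% to 1.79%) and 2.24% in replicate 2 (1.22% to 4.08%). The intervals treat normalised counts as reads and cover counting error only. The mean share was 19.0% ± 5.3 in Prox1 cells and 1.51% ± 1.04 in GFP cells (SD, n = 2 each). The sum of both motors overlapped between the groups, with 624 and 574 normalised counts in the Prox1 libraries against 651 and 446 in the GFP libraries.

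Sequence beside the RefSeq start of both motors is shown because the libraries of the groups separated at Smarca1 and overlapped at Smarca5. Each line gives 200 bases on the gene's own strand, from 250 to 51 bases before the RefSeq start (GRCm38.p6, the build of mm10), with every CG dinucleotide in capitals. The Smarca1 window is chrX:47892664-47892863 and the Smarca5 window is chr8:80739510-80739709, both on the minus strand and free of annotated GENCODE M21 exons. They are not at like positions in the deposited gene models: the Smarca1 window lies 111 to 310 bases inside the gene, past its outermost start at 47892974, while the Smarca5 window lies 13 to 212 bases before its gene. The values of each window are therefore given for that window alone, and no difference between the genes is read from them.
Smarca1: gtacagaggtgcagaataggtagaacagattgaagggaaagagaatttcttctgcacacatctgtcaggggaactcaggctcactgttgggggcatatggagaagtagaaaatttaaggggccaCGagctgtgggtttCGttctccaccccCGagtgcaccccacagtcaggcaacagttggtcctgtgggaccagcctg
Smarca5: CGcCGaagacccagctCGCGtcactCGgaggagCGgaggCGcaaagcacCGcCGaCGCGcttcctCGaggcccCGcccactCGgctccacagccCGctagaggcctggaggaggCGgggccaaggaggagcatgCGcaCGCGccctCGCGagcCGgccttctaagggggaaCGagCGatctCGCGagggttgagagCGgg
The Smarca1 window held 3 CG dinucleotides and 52.5% G and C, and the Smarca5 window held 27 and 72.0%. The median over the 32851 RefSeq windows of the same length was 4 CG dinucleotides. Windows were found for 6 of the 10 genes. Those of Bptf, Baz1b and Baz2a held 26, 16 and 14 CG dinucleotides, and the Baz1b and Baz2a windows overlap annotated exons. The Baz2b window, with 3, also overlaps exons and lies 83849 bases inside the gene as deposited, so it stands for an inner start. Of 4 motifs searched on both strands, the GC box GGGCGG was in the Smarca5, Bptf and Baz1b windows and in 24.6% of all windows. CCAAT was in Baz1b and Baz2b (28.4% of all windows), TATAAA in Baz2b (9.14%), and the E-box CACGTG in none of the 6 (4.34%). The Smarca1 window held none of the 4, and the sequence before the outermost start of the deposited gene was not examined. These are matches of letters in a window, and no binding, methylation or start site was measured.

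**Figure D1:**
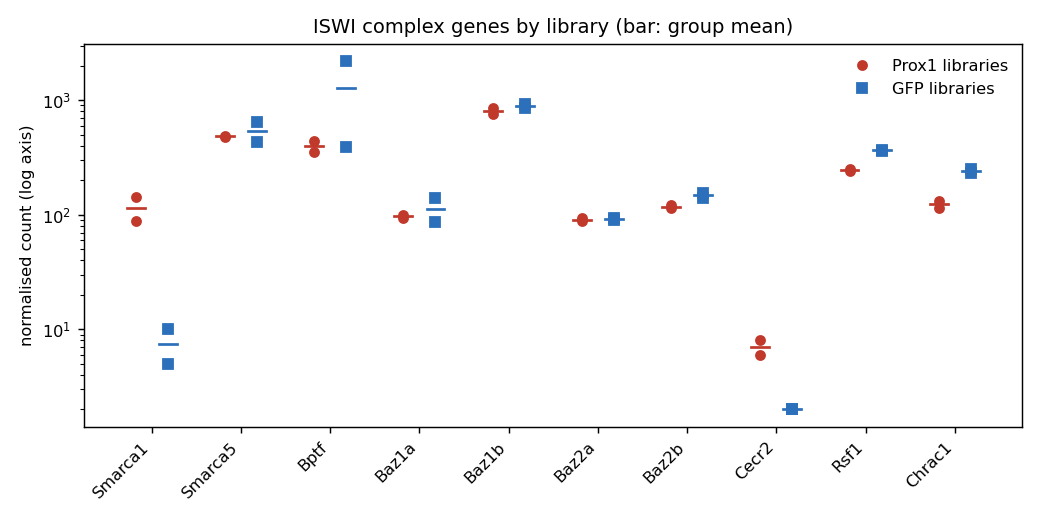
Normalised counts (log axis) of the 10 ISWI genes, with circles for the Prox1 libraries, squares for the GFP libraries to their right, and a bar at each group's mean (n = 2). Smarca1 is at 142 and 88 in Prox1 cells against 5 and 10 in GFP cells, and Bptf has 1 GFP library at 2184 beside 390 in the other.

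Bptf (ENSMUSG00000040481, mm10 chromosome 11, positions 107033081 to 107132127), the large histone-reading subunit of NURF and the usual partner of Smarca1, was not higher in Prox1 cells. Bptf had 354 and 438 normalised counts in Prox1 cells, against 2184 and 390 in GFP cells. GFP replicate 1 stood alone: the other 3 libraries lay between 354 and 438, and the Prox1 mean was 1.02 times GFP replicate 2. In the authors' deposited table Bptf was lower in Prox1 cells, with a log2 fold change of -1.70 and a DESeq adjusted p of 0.00949. limma gave a log2 difference of -1.23 ± 0.53 (SE) and an adjusted p of 0.133, which did not pass. Without GFP replicate 1 the log2 difference was 0.01 (limma adjusted p 0.974, in a range of 3.16e-05 to 0.974 over the other settings).

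The gap between the GFP libraries at Bptf was 5.6-fold, and 40 of 13290 tested genes (0.301%) had one as large on the log2(normalised count + 1) scale. In 22 of these 40 genes GFP replicate 1 was the higher library. Only 9 of the 40 averaged at least 100 normalised counts in the GFP libraries, and 5 of the 9 are in a list of 50 cancer hotspot amplicon panel genes. That list was written here after values were seen and comes from no sample label. Of its genes 41 were tested, and only these 5 had so large a gap. GFP replicate 1 was the higher library in 4 of the 5 (Abl1, Rb1, Pik3ca and Idh1), while Met had 10 there against 14834 in GFP replicate 2. Bptf is not a panel gene, and none of the 10 ISWI genes is. The nearest tested genes on either side did not share the gap: Nol11 was at 294 and 403 in Prox1 cells, against 390 and 378 in GFP cells, and 1810010H24Rik at 70 and 52 against 25 and 46. Whether the high counts of these listed genes have a part at Bptf was not tested.

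Cecr2 (ENSMUSG00000071226, chromosome 6), which joins Smarca1 in the CERF complex, was near the limit of detection. It had 8 and 6 normalised counts in Prox1 cells, against 2 and 2 in GFP cells, with a mean below the minimum for the test. Both Prox1 libraries were higher, and the ratio of sums was 3.50 with a 95% exact counting interval of 1.10 to 14.6. The interval treats normalised counts as reads and covers counting error only, not the spread between libraries. No rise is read from it. The partners of Smarca1 thus differed, with Cecr2 at very low counts in all 4 libraries and Bptf at 354 or more.

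Chrac1 (ENSMUSG00000068391, mm10 chromosome 15, positions 73090392 to 73097554, plus strand), a small histone-fold subunit of CHRAC that helps Smarca5 and Baz1a hold DNA, fell in Prox1 cells. It had 133 and 115 normalised counts in Prox1 cells, against 233 and 253 in GFP cells. The groups did not overlap, and the replicates of each lay close together. The means were 124.0 ± 12.7 in Prox1 cells and 243.0 ± 14.1 in GFP cells (SD, n = 2 each), 1.96-fold lower, with a log2 difference of -0.97 ± 0.24 (SE; limma adjusted p 0.0180). Its limma adjusted p was 0.216 or 0.196 when Prox1 replicate 1 or 2 was left out, 0.193 or 0.253 when GFP replicate 1 or 2 was, 0.0659 without the variance trend and 0.235 without the minimum count, and 0.00752 to 0.253 over the 14 other settings. The authors' deposited table gave Chrac1 an adjusted p of 0.209 by DESeq. In all, 6 of the 10 ISWI genes overlap 16 other annotated genes, all of them at 0 to 30 normalised counts except Ago2. Chrac1 overlaps Ago2 on the opposite strand, and the use of strand in counting is not given in the sources used here. Ago2 was at 988 and 918 in Prox1 cells, against 1052 and 889 in GFP cells, a log2 difference of -0.02 (limma adjusted p 0.956).

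Pole3, the histone-fold protein that pairs with Chrac1 in CHRAC, rose in Prox1 cells. It was at 754 and 775 normalised counts in Prox1 cells, against 451 and 517 in GFP cells, 1.58-fold higher, with a log2 difference of 0.66 ± 0.21 (SE; limma adjusted p 0.0476). Its limma adjusted p was 0.140 without the variance trend and 0.319 without the minimum count. The authors' deposited table gave Pole3 an adjusted p of 0.452 by DESeq. Pole3 is also a subunit of DNA polymerase epsilon, so its count is not that of CHRAC alone. The third member of this module, Baz1a (ENSMUSG00000035021, chromosome 12), the large subunit of ACF and CHRAC, had 100 and 94 in Prox1 cells, against 140 and 86 in GFP cells. The groups overlapped, and the log2 difference was -0.18 ± 0.30 (SE; limma adjusted p 0.731; 95% interval -0.84 to 0.48). By limma with all libraries, genes for subunits of 1 complex thus had a fall, a rise and a difference that did not pass. By the authors' DESeq neither the fall of Chrac1 nor the rise of Pole3 passed.

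Rsf1 (ENSMUSG00000035623, chromosome 7), a histone-binding subunit that forms the RSF spacing factor with Smarca5, had 239 and 252 normalised counts in Prox1 cells, against 369 and 361 in GFP cells. The groups did not overlap, and Prox1 cells were the lower. The ratio of means was 0.673 and the log2 difference -0.57 ± 0.22 (SE). It did not pass, with a limma adjusted p of 0.0932 and an unadjusted p of 0.0218. The authors' deposited table gave Rsf1 an adjusted p of 0.529 by DESeq.

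The 4 bromodomain partners of the BAZ family showed small differences. Baz1b (ENSMUSG00000002748, chromosome 5), the Williams syndrome transcription factor of the WICH complex, which works at replicating chromatin, had 859 and 757 normalised counts in Prox1 cells, against 850 and 935 in GFP cells. Its groups overlapped (log2 difference -0.14 ± 0.21, SE; limma adjusted p 0.676; 95% interval -0.59 to 0.30). Baz2a (ENSMUSG00000040054, chromosome 10), the NoRC subunit that silences ribosomal DNA, had 88 and 94 in Prox1 cells, against 94 and 90 in GFP cells. These were the closest groups of the 9 tested genes (log2 difference -0.02 ± 0.28, SE; limma adjusted p 0.977; 95% interval -0.62 to 0.59). Baz2b (ENSMUSG00000026987, chromosome 2), the less studied paralogue of Baz2a, had 114 and 122 in Prox1 cells, against 156 and 141 in GFP cells. Here the groups did not overlap, with Prox1 cells lower, but the log2 difference of -0.33 ± 0.26 did not pass (SE; limma adjusted p 0.414).

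**Figure D2:**
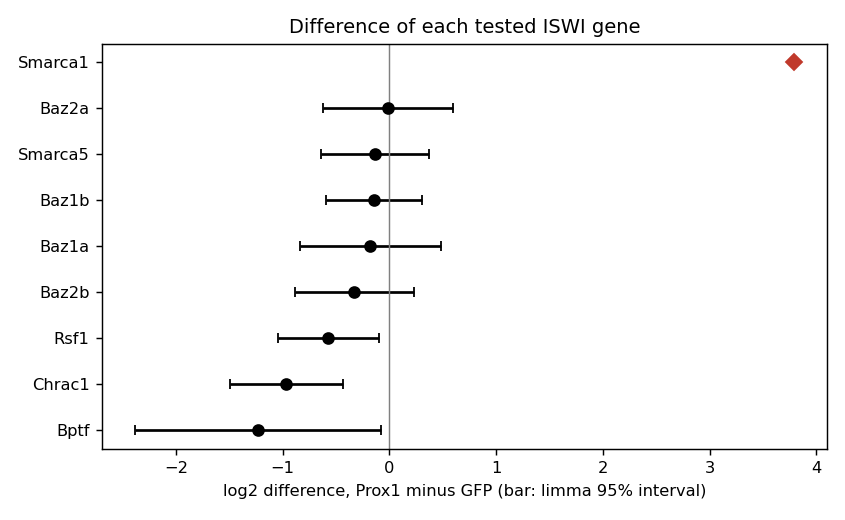
Log2 difference, Prox1 minus GFP, of the 9 tested ISWI genes (x axis), with limma's 95% interval as a bar for all but Smarca1, which was chosen for its rise and is shown as a diamond with no interval. Smarca1 is at 3.80, and the 8 others lie between -1.23 (Bptf) and -0.02 (Baz2a).

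Counted over the set, limma called 1 of the 8 tested members other than Smarca1, with Chrac1 lower, beside 16.0% of all tested genes (7.57% higher and 8.41% lower). The libraries of the groups did not overlap in 4 of the 9, 1 higher and 3 lower in Prox1 cells, beside 58.8% of all tested genes (28.9% higher and 29.9% lower). Since the contrast chose Smarca1, nothing is read from these counts. The 8 tested members other than Smarca1 all had a negative difference, with a median of -0.25 beside -0.0017 over all tested genes, and 7 of the 8 did not pass. Without GFP replicate 1 the differences of Smarca5, Bptf, Baz1a and Baz2a were above 0 (0.15, 0.0139, 0.17 and 0.0150), so the shared sign did not hold without that library. Baz2a was also above 0 without Prox1 replicate 1 (0.0310). By the adjusted p of the authors' deposited table, 1 of the 8 members other than Smarca1 with a p-value passed (Bptf), beside 4.62% of its genes, and nothing is read from that count.

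Levels between genes are listed on the authors' normalised count per kilobase of their gene length. Libraries of transcript ends call for no division by length. The order below therefore depends on gene length and describes this scale only. In Prox1 cells Baz1b was highest with a mean of 102 per kb, followed by Smarca5 with 48.0 and Bptf with 44.9, which overlapped, then Chrac1 with 28.1, Baz2a with 23.9, Smarca1 with 13.0, Rsf1 with 9.30, Baz1a with 8.63, Baz2b with 7.22 and Cecr2 with 0.561. In GFP cells Bptf came first with a mean of 146 per kb that rested on replicate 1 (248 against 44.2), and it overlapped Baz1b with 112. Chrac1 with 55.2 and Smarca5 with 53.7 overlapped, as did Baz1a with 10.1 and Baz2b with 9.09. On this scale Smarca1, at 0.850 per kb, was ninth in GFP cells, above only Cecr2 at 0.160, and sixth in Prox1 cells. Its Prox1 libraries (16.1 and 9.98) lay above those of Rsf1 (9.05 and 9.54). Before division by length the order was the reverse, with Smarca1 at 142 and 88 in Prox1 cells and Rsf1 at 239 and 252. The gene lengths were 8819 bases for Smarca1 and 26407 for Rsf1.

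The 10 ISWI genes lie on 10 different chromosomes. Around Smarca1, 28 further genes of the table lie within 1 Mb, and the 10 that could be tested all lie on the side of its own start. Of these 1 rose, 0 fell and 9 did not pass, beside 16.0% of all tested genes called (7.57% higher and 8.41% lower). Nothing is read from that count. Their median log2 difference was -0.04, against -0.06 over 546 tested X-linked genes. The nearest were Gm14648, at 540 and 595 in Prox1 cells, against 808 and 664 in GFP cells, and Ocrl, a phosphatidylinositol phosphatase, at 86 and 109 against 82 and 57. The gene that rose was Gpr119, a receptor for lipid amides, at 236 and 190 in the Prox1 libraries against 119 and 81 in the GFP libraries (log2 difference 1.10; limma adjusted p 0.0182). Aifm1, Bcorl1, Rbmx2, Slc25a14, Utp14a, Zdhhc9 and Zfp280c had log2 differences between -0.51 and 0.27. No tested gene beside Smarca1 came near its difference, and the other side of Smarca1 held 5 genes of the table and none with enough counts.

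**Figure D3:**
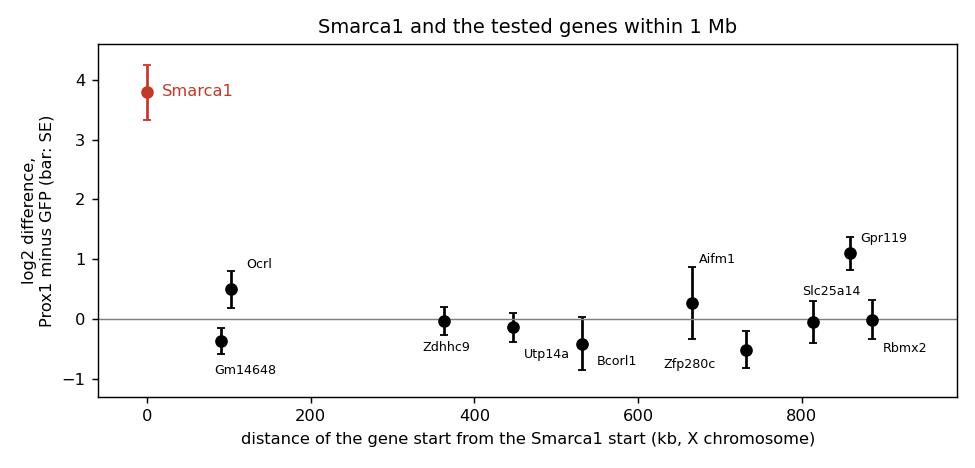
Log2 difference, Prox1 minus GFP (y axis, bar: SE), of Smarca1 and the 10 tested genes within 1 Mb, by distance in kb between their lower coordinate and that of Smarca1 (x axis). Smarca1 stands at 3.80, and the others between -0.51 and 1.10 (Gpr119).

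The pattern over the 4 libraries most like that of Smarca1 was looked for among all tested genes, by the Euclidean distance between log2(normalised count + 1) values centred on each gene's mean. With only 4 libraries this is a description. The 5 nearest were Mir101c (distance 0.178), at 27 and 16 in the Prox1 libraries against 0 and 1 in the GFP libraries; Magel2 (0.357), at 135 and 107 against 7 and 12; Hist1h2bc (0.365), at 508 and 329 against 21 and 29; the pseudogene Gm11469 (0.511), at 79 and 49 against 2 and 3; and BC051019 (0.544), at 19 and 20 against 0 and 1. Reads of Hist1h2bc and Gm11469 could be shared with near-identical copies, so their counts are uncertain. Mir101c and BC051019 passed the minimum only through their Prox1 libraries. With 0 and 1 in the GFP libraries, their distances depend on the 1 added before the log2. None of the 5 lies on the X chromosome. Smarca5 was closest to Dpy19l4, Zbtb1 and Zgrf1 (distances 0.0324 to 0.0377), which like it were highest in GFP replicate 1.

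Accessory ISWI subunits and partners, listed apart from the members, were 14 genes, all tested. Of these 1 rose, 1 fell and 12 did not pass (14.3% called, beside 16.0% of all tested genes; median log2 difference -0.04). Pole3, described above, rose. Rbbp7, a histone chaperone of NURF that is shared with NuRD and Polycomb complexes, fell to 1459 and 1367 normalised counts in the Prox1 libraries, against 2669 and 2166 in the GFP libraries (1.71-fold lower; log2 difference -0.77 ± 0.22, SE; limma adjusted p 0.0292). Its paralogue Rbbp4 was at 2775 and 2589 in Prox1 cells, against 2886 and 3317 in GFP cells, with a log2 difference of -0.21 that did not pass.

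The other remodeller families were compared as lists to see where the ISWI genes stand. Among 27 tested SWI/SNF genes 2 rose, 2 fell and 23 did not pass, with a median log2 difference of -0.04. The share called was 14.8%, beside 16.0% of all tested genes. Arid1b, a DNA-binding subunit, was at 292 and 378 in the Prox1 libraries against 195 and 144 in the GFP libraries, and Ss18 at 3509 and 2343 against 1241 and 1979. The motor Smarca2 was at 66 and 56 in the Prox1 libraries against 148 and 116 in the GFP libraries, 2.16-fold lower (limma adjusted p 0.0238), and the core subunit Smarcb1, itself a gene of the amplicon panel, at 848 and 1138 against 1618 and 1794. Among 19 CHD and NuRD genes 0 rose by limma's adjusted p and 1 fell (5.26% called, beside 16.0% of all tested genes). The gene that fell was Chd2, at 317 and 224 in the Prox1 libraries against 458 and 482 in the GFP libraries. By limma 7 of the 19 had an unadjusted p under 0.05, beside 31.7% of all tested genes, and the authors' DESeq passed 0. Among 28 INO80, SRCAP and TIP60 genes 2 rose and 0 fell (7.14% called, beside 16.0% of all tested genes). By limma 5 had an unadjusted p under 0.05, beside 31.7% of all tested genes. The genes that rose were Tfpt, at 243 and 300 in the Prox1 libraries against 134 and 120 in the GFP libraries, and Ing3, at 198 and 177 against 118 and 92.

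Among 15 other ATPases of the SNF2 family 1 rose and 1 fell (13.3% called, beside 16.0% of all tested genes). Hells, a remodeller needed for DNA methylation, had 838 and 751 normalised counts in Prox1 cells, against 1528 and 1665 in GFP cells, 2.01-fold lower (log2 difference -1.01 ± 0.21, SE; limma adjusted p 0.00643). Btaf1, which removes TATA-binding protein from DNA, had 153 and 165 in Prox1 cells, against 83 and 63 in GFP cells, 2.18-fold higher (limma adjusted p 0.0170). Over the 5 lists, 11 of 103 tested genes were called (10.7%, beside 16.0% of all tested genes), 6 higher and 5 lower. The log2 differences of all 103, called or not, lay between -1.20 and 1.12. The authors' deposited table passed 0 of the 103.

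**Figure D4:**
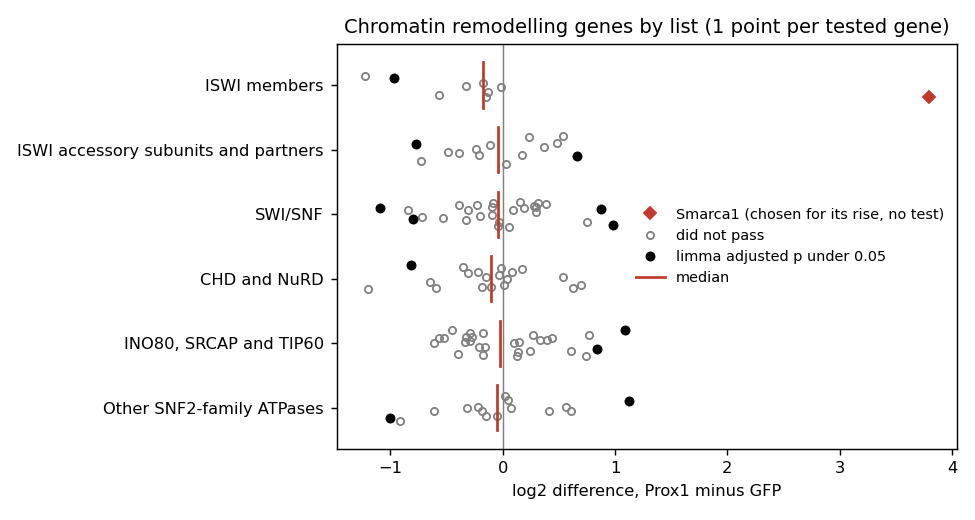
Log2 difference, Prox1 minus GFP (x axis), of each tested gene in the ISWI set and in 5 lists of remodelling genes, with filled points for a limma adjusted p under 0.05 and a line at each list's median. Medians lie between -0.18 and -0.03, and only Smarca1 (diamond, chosen for its rise) lies beyond 1.20 on the positive side, with Bptf at -1.23 the lowest.

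En1 and En2, engrailed genes linked to NURF, were at 0 in all 4 libraries.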

How the data were processed

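Total RNA of the 4 samples went into QuantSeq libraries of 3′ ends, read on an Ion Proton, per the labels' protocols. The deposited values are log2(normalised count + 1) for each library, as the authors' column names and the values show; undoing the log2 gave whole numbers (largest relative deviation 3.47e-09), so the normalised counts had been rounded and a count model was not run, although it had been planned for raw counts. DESeq and mm10 are named in the submitters' processing notes; the sources used here give no aligner, counting method or strand setting. The deposited signal, a normalised count divided by a gene length, gave levels per kb, and each sample's own file repeats it for the 1860 genes with an authors' p-value under 0.05. The authors' DESeq p-value and log2 fold change are quoted as such, per the file headers.

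Prox1 was compared with GFP by limma 3.58.1 in R 4.3.3 (eBayes with a mean-variance trend, two-sided, Benjamini-Hochberg adjustment, threshold 0.05) on genes with a mean of at least 10. The fit was tested on simulated data. Groups came from sample titles. Members and lists were chosen with earlier results of these data known. All members are named; of each list, up to 2 called genes that rose most and 2 that fell most; tested neighbours within 1 Mb of Smarca1; and the 5 and 3 genes most like Smarca1 and Smarca5. Rbbp4, Nol11, 1810010H24Rik, Ago2 and the panel genes were named after their values were seen. Start-region sequences are from RefSeq, and motif shares from its 32851 windows. Alternatives were other scalings, filters, pseudocounts, variance models, the replicate block, leaving out each library, and leaving out 50 amplicon panel genes. One gene of a short list of ISWI targets is not reported here.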

Additional observations from a re-analysis of the deposited data

How the results depend on the processing

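Calls depended most on the number of libraries and the filter. Without the minimum count limma called 0 genes higher, 0 lower, 0 ISWI members and 0 genes of the 5 lists (4421 genes had an unadjusted p under 0.05). With the variance trend dropped, these counts were 533, 524, 1 (Smarca1, which was chosen for its rise) and 0. With any 1 library left out, where the lone sample is assumed to vary like the other group, each of these counts was 0, and the difference in the Smarca1 share ranged from 13.8 to 21.3 percentage points (17.5 with all libraries). Over the fits with 1 library left out, log2 differences ranged from -0.42 to 0.15 for Smarca5, -2.47 to 0.0139 for Bptf, -0.53 to 0.17 for Baz1a and -0.0631 to 0.0310 for Baz2a. They turned positive without GFP replicate 1 (for Baz2a also, at 0.0150, and at 0.0310 without Prox1 replicate 1). TMM, cyclic loess, either pseudocount, vooma weights, a mean of at least 50 and leaving out panel genes changed no call of a member. Deviations of samples with the same replicate number had a correlation of -0.05 over 13290 genes. With so few libraries this cannot show whether same-numbered libraries were prepared together, and no label says so. With the replicate block limma called 1216 genes higher and 1312 lower, and Bptf passed (adjusted p 3.16e-05); that fit's prior degrees of freedom were infinite, so a gene's own spread did not enter. Cecr2 stayed under 10 normalised counts in every library, which limits the precision of its ratio.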
